A study of Mus musculus with 4 samples.

Results

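The cells described here are a small set of mouse lung fibroblasts that carry the RNA of adventitial fibroblasts together with transcripts of Ptx3, Efhd1, Ebf2, Cadm3 and Lrrn4cl. A cell barcode was a member when it had at least 500 detected genes, at most 10% mitochondrial UMIs, no UMI of Epcam, Ptprc or Pecam1, and at least 10 UMIs of Clec3b, Serpinf1 and Pi16 summed. It also had to hold at least 1 UMI of at least 3 of the 5 marker genes. A UMI is a tag that stands for 1 captured RNA molecule. Of 11118 barcodes, 9391 passed the filters on genes and mitochondrial UMIs, 6908 of those lacked the 3 excluding genes, and 3633 passed the gate on Clec3b, Serpinf1 and Pi16. Among these gated cells 144 were members, 3.96% (3.35 to 4.65) of the gate, and the other 3489 gated cells were the comparison set.

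The study profiled lung cells of tamoxifen-dosed Gli1CreERT2/WT;Rosa26mTmG/WT mice of about 8 weeks, sorted as CD45neg CD31neg, which removes leukocytes and endothelium. All cells thus share the Cre allele at Gli1 and a membrane reporter that switches from tandem tomato to enhanced GFP in cells with Cre activity and in their descendants. The labels name the strain as C57BL/6J in one field and B6D2F1/J in another, and they list no mice without tamoxifen or Cre. The 4 samples have the same labels and share 1 count matrix without a map from cells to samples or mice, so the data are 1 pooled sample and no difference between animals or conditions can be tested.

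Adventitial fibroblasts lie in the connective tissue cuffs around the larger vessels and airways. In several organs, adventitial cells marked by Pi16 and Dpp4 are described as a reserve from which other fibroblasts can arise. Ebf2 encodes an early B cell factor, a DNA-binding protein known for its part in the adipocyte lineage. Ptx3 encodes a long pentraxin, a secreted recognition protein of innate immunity that also cross-links hyaluronan matrix.

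Because Ebf2 is a DNA-binding protein, the promoters of the genes that were highest in these cells were read for the palindrome bound by early B cell factors, which is TCCC, any 2 bases and GGGA and reads the same on both strands. Both promoters that held it are shown, those of the marker Cadm3 (GRCm38.p6 chr1:173367696-173367945, minus strand) and of the surface peptidase gene Dpp4 (chr2:62412232-62412481, minus strand). Each is the run of 250 bases before the RefSeq start, 5′ to 3′, with the palindrome in capitals.
Cadm3: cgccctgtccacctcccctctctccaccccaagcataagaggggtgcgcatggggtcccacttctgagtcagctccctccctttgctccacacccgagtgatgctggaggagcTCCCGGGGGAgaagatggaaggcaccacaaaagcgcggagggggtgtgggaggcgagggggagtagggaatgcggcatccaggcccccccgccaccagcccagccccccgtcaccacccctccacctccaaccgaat
Dpp4: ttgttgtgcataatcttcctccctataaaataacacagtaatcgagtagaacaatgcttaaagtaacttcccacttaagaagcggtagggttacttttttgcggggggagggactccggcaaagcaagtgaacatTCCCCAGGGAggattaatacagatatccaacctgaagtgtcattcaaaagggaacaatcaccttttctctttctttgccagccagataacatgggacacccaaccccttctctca
The palindrome began 137 bases before the start of Cadm3 and 115 bases before that of Dpp4. The windows searched were longer than the 250 bases shown, since they also reached a short way past the start. Of the 5 markers and the 20 genes outside the rule with the highest ratios, 11 had a window in the RefSeq table and 2 of the 11 held the palindrome. Among all 27025 genes with such a window, 287 (1.06%) held it, and among all 32851 windows 297 (0.904%). The 11 genes include Jchain and Mb, whose UMIs in members came mostly from 1 cell each. The windows of Ptx3 and Efhd1 did not contain these letters, and Ebf2 and Lrrn4cl had no entry. A match describes letters only.

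The members were deeper than the other gated cells, with 5956 to 32986 UMIs per cell (median 11663.5) against 1039 to 37645 (median 9014), and the rule itself favours deep cells. Median mitochondrial shares were 2.02% and 2.34%. A doublet caller marked 4 members and 136 others. Levels are UMIs of a gene per 1000000 UMIs of the set of cells (CPM), and every interval is an exact 95% interval that covers counting error only. Levels were compared between cells and not between genes.

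The label was set against the marker lists. The adventitial fibroblast list includes the 3 gate genes, which the rule used and of which Pi16 stood at 3568 against 1371 CPM, Clec3b at 3990.3 against 2692 CPM and Serpinf1 at 1451 against 1408 CPM. Its other 6 genes, Dcn, Mfap5, Col14a1, Dpp4, Cd34 and Ly6a, summed to 21556 CPM in members and 14834 CPM in the others, and per member from 11419 to 35562 CPM. Alveolar fibroblast markers summed to 1223 against 3121 CPM and mesothelial markers to 6.76 against 77.3 CPM, with Upk3b, Lrrn4 and Muc16 at 0 in members. Endothelial markers summed to 6.76 against 7.14 CPM, Pecam1 being at 0 by the rule. The 5 adipocyte markers were at 0 in members and had 14 UMIs in all the others.

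Other lists were higher in members. The 5 peribronchial or myofibroblast markers summed to 692 against 400.3 CPM, but they were divided. Aspn, Mustn1 and Fgf18 were higher, while Hhip, at 45.6 against 160.0 CPM, and Enpp2, at 15.2 against 21.8 CPM, were lower. The leukocyte markers summed to 522 against 342 CPM, with a median of 73.5 CPM per member and 80.4 CPM per other cell and 1 member at 17874 CPM. The alveolar type 2 markers summed to 2948 against 2141 CPM, with medians of 408 and 473 CPM per cell and 1 member at 80767 CPM. The ciliated markers summed to 421 against 192 CPM, from 1 of 4 genes in members, with Foxj1, Dynlrb2 and Ccdc153 at 0. The part of these markers in the results was not tested.

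The 5 markers, which the rule used, were carried unevenly. Ebf2 (mm10 chr14:67233292-67430918) had a UMI in 133 of 144 members, 92.4%, at 196 against 22.7 CPM. Its level per member ran from 0 through a median of 172 to 849 CPM. Cadm3 (chr1:173333258-173367695), an immunoglobulin-type adhesion molecule, was found in 81.3% of members at 148 against 12.8 CPM. Lrrn4cl (chr19:8850768-8853909) was found in 72.2% at 161 against 5.96 CPM, and Efhd1 (chr1:87264363-87310839), a mitochondrial calcium-binding protein, in 65.3% at 132 against 1.39 CPM.

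Ptx3 (chr3:66219910-66225805) differed from the other 4 in its spread. It was found in 52 members, 36.1%, at a summed level of 222 against 10.3 CPM, and per member it ran from 0 through a median of 0 to 3409 CPM. Where it was present its median was 5 UMIs and its maximum 42 UMIs, whereas each of the other markers had a median of 2 UMIs where present. Ptx3 was thus held by fewer members with more UMIs in each.

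The most frequent combination was Efhd1, Ebf2, Cadm3 and Lrrn4cl without Ptx3, in 34 members, then Ebf2, Cadm3 and Lrrn4cl in 27 and Efhd1, Ebf2 and Cadm3 in 17. All 5 markers were seen in 6 members, 4 in 56 and 3 in 82, and just outside the threshold stood 197 gated cells with 2 markers. The cells just inside held Dpp4 at 52.9 CPM and Pla1a at 44.8 CPM, and those just outside held 9.15 and 3.20 CPM, at median depths of 11227 and 10424 UMIs. Other genes changed less across the threshold. Sema3c stood at 413 CPM just inside and 239 CPM just outside, Wnt10b at 29.5 and 20.6 CPM, and Clec3b at 3884 and 4162 CPM. After every cell was thinned to 4000 UMIs, which left out 73 of the other gated cells and no member, Ebf2 was present in 50.7% of members and 7.49% of others, Efhd1 in 41.0% and 0.381%, and Ptx3 in 22.9% and 1.67%. Cells of alveolar type 2 character (median 10181.5 UMIs), taken as the background from free RNA, showed 0.0651%, 0.0651% and 0.0651%.

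Each marker was next measured in gated cells grouped only by the other 4 markers, so that the gene measured had no part in the grouping. The 5 markers were themselves chosen with earlier results of these data known. The ratios therefore describe how the markers go together in these cells and do not test it. All 5 were higher where at least 2 of the others were present than where none was. Efhd1 stood at 63.0 CPM (55.2 to 71.7) in 319 such cells and at 0.568 CPM (0.310 to 0.953) in 2672 cells with none, a ratio of 111 (64.9 to 206). Lrrn4cl stood at 88 against 4.13 CPM, a ratio of 21.3 (17 to 26.9), and Ptx3 at 112 against 7.37 CPM, a ratio of 15.2 (12.7 to 18.2). The ratios were 11.2 (9.32 to 13.4) for Cadm3 and 8.80 (7.65 to 10.1) for Ebf2. Cells with 1 other marker lay between, for Ebf2 at 55.4 CPM. The grouped cells also differed in depth, with medians of 11132 and 8819 UMIs for the Efhd1 groups, and against depth-matched cells the Efhd1 ratio was 58.3.

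**Figure D1:**
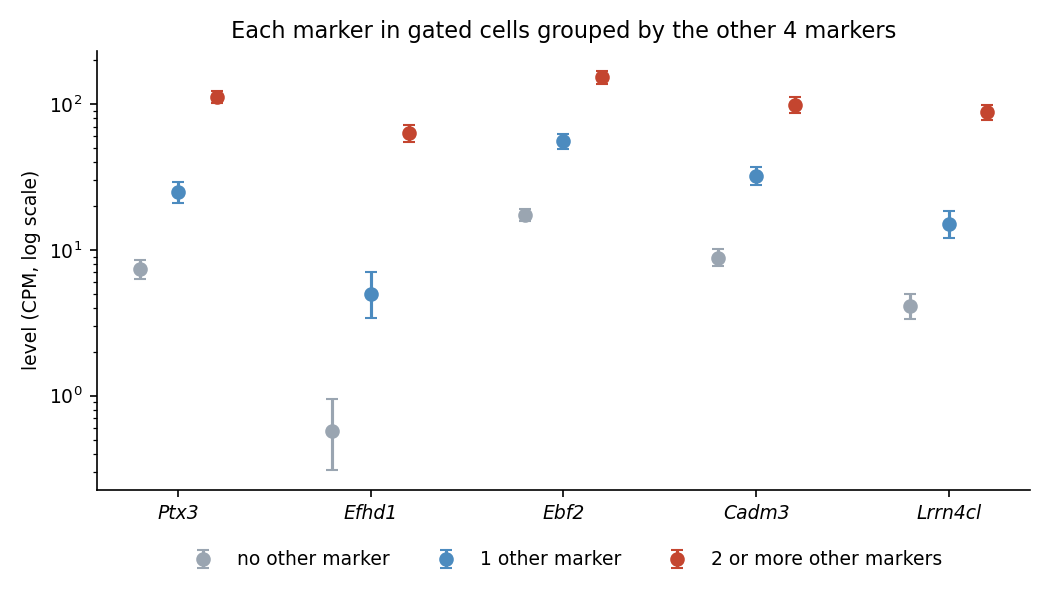
Level of each marker (CPM, log axis) in gated cells grouped by how many of the other 4 markers they held. Points are summed levels and bars exact 95% Poisson intervals. For Ptx3 the levels ran from 7.37 CPM with none of the others through 24.8 to 112 CPM with 2 or more.

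When the UMIs of each cell were split at random into equal parts, members chosen on one part and levels read from the other, the rule found 76 members. With the 3557 remaining cells they made up the full gate of 3633 cells, so the remaining cells included members by the full rule. In the unused UMIs Efhd1 was higher than in the remaining gated cells by 43.0-fold (30.6 to 60.7), Lrrn4cl by 23.9-fold (18.3 to 31.0) and Ptx3 by 17.4-fold (13.9 to 21.8). Cadm3 was higher by 8.07-fold (6.08 to 10.6) and Ebf2 by 7.22-fold (5.76 to 8.96). Of genes outside the rule, Pla1a was higher by 34.8-fold (22.5 to 53.6) and Dpp4 by 16.5-fold (11.6 to 23.2). Because the markers were chosen with earlier results of these data known, these folds are descriptions as well.

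Clustering of the gated cells without the marker, gate and reporter genes put most members together. A single cluster of 340 cells held 117 members, 81.3% (73.9 to 87.3), which made up 34.4% (29.4 to 39.7) of its cells. Its other 223 cells held Ebf2 at 103 CPM, Ptx3 at 65.7 CPM and Cadm3 at 44.6 CPM, at a median depth of 9106 UMIs against 11405 in the members beside them. The 27 members elsewhere lay in 6 clusters, with 8 in cluster 3, 6 in cluster 9, 5 in cluster 7, which contractile genes led, and 4 in cluster 12, which alveolar type 2 genes led. All 4 doublet calls among members were in these 27 cells. At a lower and a higher resolution the cluster with most members held 56.3% and 60.4% of them.

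**Figure D2:**
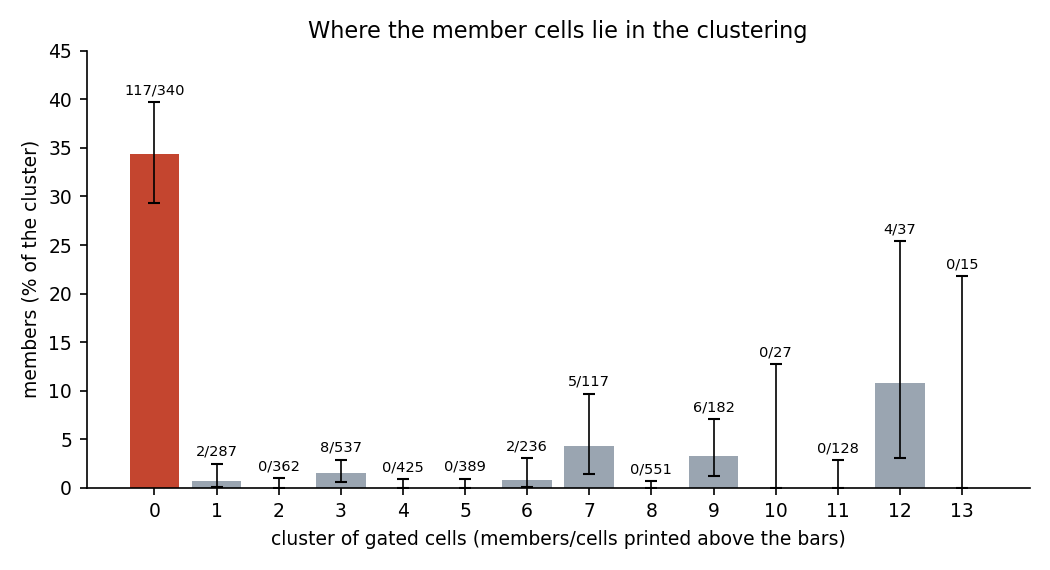
Share of the cells of each of 14 clusters that were members (percent), with exact 95% binomial intervals and numbers of members and cells. The leading cluster held 117 members among 340 cells, and 7 clusters held 0.

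Over all genes, 438 of 12544 with at least 30 UMIs stood at 2-fold or more in members over the other gated cells (3.49%) and 1233 at 0.5-fold or less (9.83%), around a median ratio of 0.952. The members were chosen from UMIs of these same cells, so these ratios and those below are descriptions and carry no test. Since the comparison set mixes several kinds of fibroblast, ratios were also taken within the leading cluster, over its 223 other cells, where 1.93% of genes stood at 2-fold or more and 2.21% at 0.5-fold or less. Of the 438 genes, 185 were also at 2-fold or more there, and 297 over gated cells matched on their gate UMIs. Over the gate-matched cells 3.53% of genes stood at 2-fold or more and 3.83% at 0.5-fold or less, and over depth-matched cells 3.05% and 6.61%. The cluster and gate-matched comparisons were chosen after the data had been seen.

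Among genes with at least 100 UMIs outside the rule, 3 immunoglobulin genes had the highest ratios, from 1 cell that is described below. Next came Pla1a. This gene (mm10 chr16:38396117-38433145), a phospholipase that acts on phosphatidylserine, ran from 0 through a median of 0 to 1474 CPM per member and was found in 27.1% of members and 1.29% of others. Its summed level was 81.7 against 1.88 CPM, higher by 43.5-fold (32.1 to 59.6), and within the leading cluster by 23.1-fold. Smpd3, a neutral sphingomyelinase, was found in 30.6% of members at 59.1 against 1.79 CPM, higher by 33.1-fold (23.9 to 46.4) and within the cluster by 10.6-fold. For each of these genes most members had no UMI. Tmem100, a transmembrane protein, was broader, in 83.3% of members at 327 against 26.5 CPM, a ratio of 12.3 that was 3.00 within the cluster. Cmah, an enzyme of sialic acid modification, had a ratio of 12.7 and Stxbp6, a SNARE-binding protein, 11.8, and within the cluster 2.98 and 3.67.

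Igfbp5, a binding protein of insulin-like growth factors, ran from 0 through a median of 1056 to 22562 CPM per member, and its summed level of 2769 against 360.4 CPM was higher by 7.68-fold (7.43 to 7.94). Within the cluster the ratio was 3.85. Nov, the matricellular protein CCN3, stood at 164 against 20.9 CPM and Cthrc1, a secreted protein with a collagen repeat, at 80.5 against 10.5 CPM, with ratios of 7.86 (6.84 to 9.03, and 3.30 in the cluster) and 7.65 (6.25 to 9.32). Aldh1a3, which makes retinoic acid, was found in 53.5% of members at 107 against 10.2 CPM, a ratio of 10.5 (8.71 to 12.5, and 3.91 in the cluster). Wnt10b, a Wnt ligand, had a ratio of 10.2 over all others and 3.06 in the cluster. The ratio of Stmn4, a stathmin that binds tubulin, was 7.42 over all others but 2.25 over depth-matched cells and 1.81 in the cluster.

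**Figure D3:**
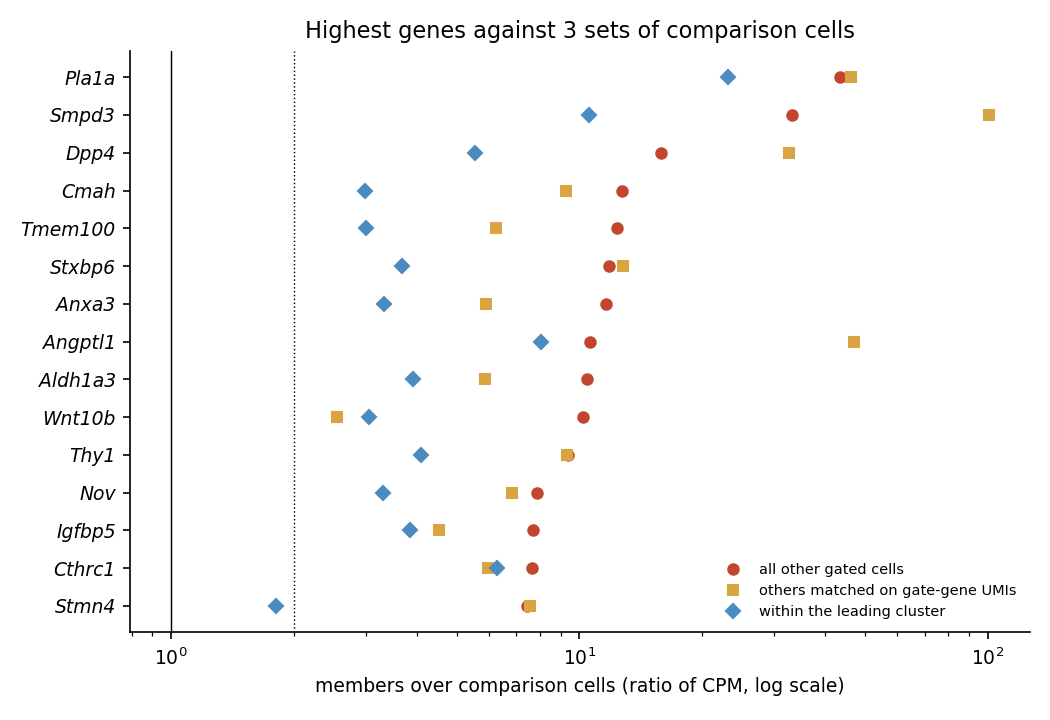
Ratio of summed CPM in members over all other gated cells, over gate-matched cells and within the leading cluster (log axis) for the highest genes that do not come mainly from 1 cell. Pla1a stood at 43.5 over all others and 23.1 within the cluster, and Stmn4 at 7.42 and 1.81.

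Some of the highest ratios came from 1 cell. A single member held 10828 of the 10834 UMIs of the immunoglobulin genes Igkc, Igha and Jchain, 32.8% of its RNA, and without it the Igkc ratio was 0.568 in place of 956. Another member held 291 of 334 UMIs of 5 cardiac muscle genes, and without it the ratios of Mb and Sln were 1.07 and 0.863 in place of 17.2 and 7.27. Neither cell was called a doublet, and these gene groups were formed after the values were seen. Angptl1, an angiopoietin-like secreted protein, drew 46.9% of its UMIs from 1 member, and its ratio was 10.6 with that member and 5.63 without it.

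The progenitor surface list holds genes that mark fibroblast progenitors in other tissues, not all of them on the surface, and they were often higher. The gene lists were chosen with earlier results of these data known, so counts from them describe and do not test. Of these genes 10 of 15 stood at 2-fold or more and 1 at 0.5-fold or less, with a median ratio of 3.12, beside 3.49% and 9.83% of all genes. Dpp4 (mm10 chr2:62330073-62412231), the exopeptidase CD26, ran from 0 through a median of 0 to 561 CPM per member and was found in 34.0% of members and 2.06% of others. Its summed level was 76.6 CPM (64.3 to 90.6) against 4.84 CPM, a ratio of 15.8 (12.5 to 20.01), and within the leading cluster 5.54. At 4000 UMIs per cell Dpp4 was in 18.8% of members and 1.20% of others. Alveolar type 2 cells carry Dpp4 themselves, so they give no background for it.

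Sema3c, a secreted semaphorin, was found in 93.8% of members and 35.4% of others. Per member it ran from 0 through a median of 394 to 2579 CPM, and per other cell from 0 through 0 to 1990.5 CPM, so the sets overlapped. Its summed level was 525 against 78.0 CPM, a ratio of 6.73 (6.24 to 7.25, and 3.05 in the cluster). Anxa3, a membrane-binding annexin, stood at 547 against 47.2 CPM and Thy1, the glycoprotein CD90, at 92.9 against 9.90 CPM, with ratios of 11.6 (10.7 to 12.6, and 3.32 in the cluster) and 9.39 (7.74 to 11.4, and 4.10 in the cluster). Cd55, which protects cells from complement, had a ratio of 3.38, the scavenging chemokine receptor Ackr3 3.12 and the stromal glycoprotein Cd248 3.39 (1.77 in the cluster).

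Surface genes shared by much of the adventitia differed less within the cluster. Ly6a, which encodes Sca-1, was in 143 of 144 members at 2625 against 888 CPM, a ratio of 2.95 that was 1.29 within the cluster. The ratio of Ly6c1 was 5.18 over all others and 1.39 in the cluster, and that of Cd34 2.06 and 1.27. Procr stood at 1.84 and Itgb1 at 0.944. Limch1, which is also on the alveolar fibroblast list used above, was at 0.461 over all others but 1.82 in the cluster. In the cluster the list had 7 at 2-fold or more and 0 at 0.5-fold or less, beside 1.93% and 2.21% of all genes there.

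Hedgehog genes were examined because Gli1 drives the Cre. Ptch1 is the ligand receptor and itself a target of the pathway, Hhip a decoy that binds the ligand, Boc a co-receptor, and Gli1 a transcription factor and target. Of these genes 0 of 12 stood at 2-fold or more and 4 at 0.5-fold or less, with a median ratio of 0.715. For this and each later list over the other gated cells, the shares of all genes were 3.49% and 9.83%. Ptch1 ran from 0 through a median of 0 to 465 CPM per member and 0 through 124 to 2397 CPM per other cell. Its summed level was 49.6 CPM (39.8 to 61.1) against 199 CPM, a ratio of 0.248 (0.199 to 0.307). Hhip stood at 45.6 against 160.0 CPM, Boc at 68.7 against 146 CPM and Foxl1, a forkhead factor, at 2.82 against 20.6 CPM.

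Gli1 did not share this difference. It stood at 27.0 CPM (19.9 to 35.8) in members and 26.8 CPM in the others, a ratio of 1.01 (0.739 to 1.35), and at 4000 UMIs it was in 11.1% and 10.7% of cells. Smo, the signal transducer, had a ratio of 1.04 and Gli3 of 1.51. Within the leading cluster the Ptch1 levels were 33.3 and 39.8 CPM, a ratio of 0.835, so the low level was shared by the other cells there. Hhip still had a ratio of 0.425 in the cluster.

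**Figure D4:**
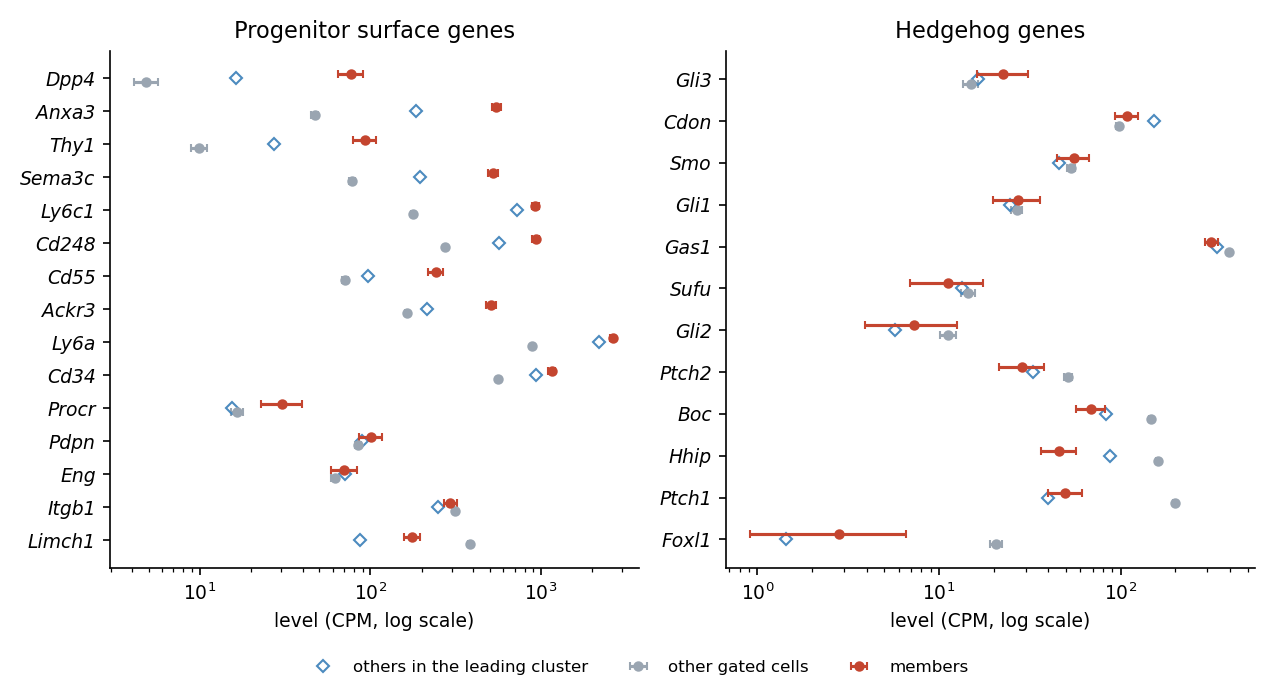
Levels (CPM, log axis) of progenitor surface genes and hedgehog genes in members, the other gated cells and the other cells of the leading cluster, with exact 95% Poisson intervals. Dpp4 stood at 76.6 CPM in members and 4.84 in the other gated cells, Ptch1 at 49.6 and 199, and Gli1 at 27.0 and 26.8.

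Among relatives of the markers, 2 of 9 stood at 2-fold or more and 2 at 0.5-fold or less, with a median ratio of 0.694. Ebf1, the paralog best known from B cells, stood at 401 against 128 CPM, a ratio of 3.13 (2.89 to 3.39) that was 1.41 in the cluster. Of fibroblast transcription factors 3 of 38 stood at 2-fold or more and 9 at 0.5-fold or less, with a median ratio of 0.698. Creb5 was at 269 against 79.5 CPM (a ratio of 3.38, and 1.44 in the cluster) and Twist1 had a ratio of 2.16 (1.15 in the cluster), while Tbx4, a factor of the lung mesenchyme, was at 0.179 (0.590 in the cluster) and Nr2f2 at 0.413 (0.812 in the cluster). Of adipocyte lineage genes 1 of 15 stood at 2-fold or more and 3 at 0.5-fold or less, with a median ratio of 1.16. Lpl, lipoprotein lipase, was at 500.2 against 160.0 CPM, a ratio of 3.13 (1.28 in the cluster), whereas the fatty acid carrier Fabp4 was at 0.309 (0.0835 to 0.801, and 0.670 in the cluster), the preadipocyte gene Dlk1 at 0.434 (3.33 over depth-matched cells) and the nuclear receptor Pparg at 1.27 (0.453 to 2.87, and 0.532 in the cluster).

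PTX3 is bound in the hyaluronan matrix, and of the genes of that matrix 4 of 12 stood at 2-fold or more and 1 at 0.5-fold or less, with a median ratio of 1.22. Itih5, of the heavy chain family that is linked to hyaluronan, stood at 274 against 61.2 CPM, a ratio of 4.48 (4.05 to 4.95, and 2.07 in the cluster). The hyaluronan synthase Has2 stood at 69.8 against 26.3 CPM and Has1 at 1023 against 493 CPM, with ratios of 2.66 (1.43 in the cluster) and 2.08, and Has1 had a ratio of 1.05 in the cluster. Tnfaip6, which transfers heavy chains to hyaluronan, was at 572 against 347 CPM, a ratio of 1.65 (0.730 in the cluster).

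The elastic fibre list was divided. Of its genes 4 of 19 stood at 2-fold or more and 4 at 0.5-fold or less, with a median ratio of 0.858. Emilin2 stood at 238 against 48.3 CPM, the microfibril gene Fbn1 at 2017 against 788 CPM and Fbln2 at 589.8 against 235 CPM, with ratios of 4.93 (2.06 in the cluster), 2.56 and 2.5. Mfap4 was lower, at 587 against 2338 CPM, and Mgp, an inhibitor of calcification, at 3658 against 15981 CPM, ratios of 0.251 (0.236 to 0.267, and 0.464 in the cluster) and 0.229 (0.223 to 0.235, and 0.414 in the cluster). Elastin, Eln, had a ratio of 0.527 (0.811 in the cluster). In the cluster 1 gene of the list, Emilin2, stood at 2-fold or more and 5 at 0.5-fold or less. The shares of all genes there were 1.93% and 2.21%.

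Of collagens 1 of 26 stood at 2-fold or more and 5 at 0.5-fold or less, with a median ratio of 0.840. The collagen share at 2-fold or more, 3.85%, was near the 3.49% of all genes. Col12a1, of the fibril-associated group, was at 3.03, and Col23a1 and Col15a1 at 0.0888 and 0.357, while fibrillar Col1a1 was at 1.02 (0.748 in the cluster). Col13a1 had a ratio of 0.185 over all others and 1.51 in the cluster. Among small proteoglycans 2 of 10 stood at 2-fold or more and 3 at 0.5-fold or less, with a median ratio of 0.991, and Aspn was at 402 against 149.8 CPM and Bgn had a ratio of 0.425 (0.704 in the cluster). Among proteases and inhibitors 3 of 27 stood at 2-fold or more and 4 at 0.5-fold or less, with a median ratio of 0.859. Adamts5, an aggrecanase, was at 504 against 185 CPM and the stromelysin Mmp3 at 235 against 526 CPM. In the cluster 0 proteases and inhibitors stood at 2-fold or more and 3 at 0.5-fold or less, beside 1.93% and 2.21% of all genes there.

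Of Wnt genes 5 of 23 stood at 2-fold or more and 6 at 0.5-fold or less, with a median ratio of 0.841. Sfrp4, a secreted antagonist, stood at 215 against 48.5 CPM, a ratio of 4.43 (3.95 to 4.96, and 1.63 in the cluster). The inhibitors Notum and Wif1 and the ligand Wnt4 were low, with ratios of 0.0589 (0.0121 to 0.173), 0.0859 (0.0233 to 0.221, and 0.565 in the cluster) and 0.0644 (0.0175 to 0.165). Of BMP and TGF-beta genes 4 of 27 stood at 2-fold or more and 8 at 0.5-fold or less, with a median ratio of 0.823. The ligand Bmp6 had a ratio of 29.0 (7.54 in the cluster) on 28 UMIs in members and 18 in others, and Fst, which binds activins, 3.22 (1.24 in the cluster), while the ligand Bmp4 was at 0.370 (0.843 in the cluster) and the latency protein Ltbp2 at 0.0512 (0.0105 to 0.150).

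Of FGF, HGF and EGF family genes 3 of 16 stood at 2-fold or more and 5 at 0.5-fold or less, with a median ratio of 0.842. Fgf18 stood at 38.9 against 5.39 CPM, a ratio of 7.21 (5.38 to 9.58) that was 1.96 in the cluster, and the receptor gene Fgfr3 at 3.94 against 79.7 CPM, a ratio of 0.0495 (0.0199 to 0.102, and 0.431 in the cluster). Hgf, a mitogen for epithelium, had a ratio of 0.135 (0.335 in the cluster). Of insulin-like growth factor genes 1 of 9 stood at 2-fold or more and 3 at 0.5-fold or less, with a median ratio of 0.693, and Igfbp3 and Igfbp7 stood at 0.261 and 0.457 in contrast to Igfbp5. Of retinoid and lipid genes 2 of 20 stood at 2-fold or more and 4 at 0.5-fold or less, with a median ratio of 1.02, with the apolipoprotein Apoe at 619.6 against 3171 CPM (a ratio of 0.195, and 0.294 in the cluster) and the retinol esterifying enzyme Lrat at a ratio of 0.180.

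Of chemokines and cytokines 5 of 26 stood at 2-fold or more and 4 at 0.5-fold or less, with a median ratio of 0.985. Il33, an alarmin, stood at 357 against 78.9 CPM, a ratio of 4.52 (4.13 to 4.93) that was 1.47 in the cluster. The monocyte attractants Ccl7 and Ccl2 had ratios of 3.31 (1.26 in the cluster) and 2.20 (1.40 in the cluster), and Cxcl14 was at 67.6 against 465 CPM, a ratio of 0.145 (0.120 to 0.174, and 1.16 in the cluster). Of interferon inducible genes 5 of 14 stood at 2-fold or more and 0 at 0.5-fold or less, with a median ratio of 1.35. Ifi204, Ifi207 and Ifi205 had ratios of 5.20, 4.65 and 3.34 over all others but 1.21, 1.05 and 1.03 in the cluster, and Ifi27l2a 2.41 and 2.02. Of complement and acute phase genes 1 of 16 stood at 2-fold or more and 4 at 0.5-fold or less, with a median ratio of 0.796, and of NF-kB response genes 2 of 17 stood at 2-fold or more and 1 at 0.5-fold or less, with a median ratio of 0.866.

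Of immediate early and heat shock genes, which cell dissociation can induce, 0 of 19 stood at 2-fold or more and 1 at 0.5-fold or less, with a median ratio of 0.836, and of mitochondrial calcium genes, the group of Efhd1, 1 of 11 stood at 2-fold or more and 0 at 0.5-fold or less, with a median ratio of 1.0001. Of PDGF and KIT genes 0 of 6 stood at 2-fold or more and 1 at 0.5-fold or less, with a median ratio of 0.687, and of angiogenic factors 2 of 16 stood at 2-fold or more and 5 at 0.5-fold or less, with a median ratio of 0.611. These counts, too, stand beside 3.49% and 9.83% of all genes.

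Contractile genes were low. Of these 0 of 11 stood at 2-fold or more and 10 at 0.5-fold or less, with a median ratio of 0.215, and in the cluster 0 at 2-fold or more and 5 at 0.5-fold or less, beside 1.93% and 2.21% of all genes there. Tagln stood at 18.6 against 119 CPM and Acta2, smooth muscle actin, at 28.7 against 133 CPM (a ratio of 0.216, and 0.358 in the cluster). By cells, Tagln was found in 13.9% of members and 21.1% of others, and Acta2 in 12.5% and 26.1%. The smooth muscle markers as a list summed to 54.1 against 285 CPM. Their median per cell was 0 CPM in both sets, with maxima of 1324 CPM in members and 39605 CPM in the others. Of cell adhesion genes 1 of 17 stood at 2-fold or more and 5 at 0.5-fold or less, with a median ratio of 0.821, with Vcam1 at 99.1 against 304 CPM (a ratio of 0.327, and 0.552 in the cluster). Itga8 and Cdh11 had ratios of 0.168 and 0.217 over all others but 2.26 and 1.0004 in the cluster. The Itga8 ratio in the cluster rests on few UMIs, at 6.51 and 2.88 CPM, and all members together held 30. Of cell cycle genes 0 of 12 stood at 2-fold or more and 6 at 0.5-fold or less, with a median ratio of 0.228. Top2a had 1 UMI in members, a ratio of 0.0552 (0.00139 to 0.310), but the 337 UMIs of the others lay in 32 cells. By cells, Top2a was thus found in 0.694% of members and 0.917% of others. In the cluster 2 of the cell cycle genes stood at 2-fold or more and 0 at 0.5-fold or less. With at least 2 markers asked for, the ratios of Top2a, Cdk1, Ccnb1 and Ccnb2 were 3.09, 3.01, 3.62 and 1.96.

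The genes at the other end of the ranking had no UMI in any member, so their folds are lower bounds set at 3 UMIs over the members. Upk3b, a mesothelial uroplakin, was at least 11.9-fold lower and was found in 1.38% of the others. Cpxm2, of the carboxypeptidase family, was at least 10.9-fold lower, the factor Gata5 at least 8.78-fold and the forkhead factor Foxd1 at least 7.90-fold. These last 3 were found in 10.9%, 10.4% and 7.42% of the others.

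Members with and without Ptx3 were compared, a split chosen after the data had been seen. The 52 with Ptx3 and 92 without had median depths of 11623 and 11663.5 UMIs. Of 6321 genes with at least 30 UMIs over both, 1.33% stood at 2-fold or more with Ptx3 and 2.04% at 0.5-fold or less. Of chemokines and cytokines 6 of 19 stood at 2-fold or more and 0 at 0.5-fold or less. Il6 was at 513 against 229.9 CPM, a ratio of 2.23 (1.89 to 2.64). Ccl2 was at 205 against 52.4 CPM, a ratio of 3.91 (2.86 to 5.41), but only 17 of all 144 members had a UMI of it. The neutrophil attractant Cxcl1, under 2-fold, was at 1497 against 782 CPM, a ratio of 1.91 (1.74 to 2.10). Tnfaip6, the hyaluronan matrix partner of Ptx3, was at 838 against 418 CPM, a ratio of 2.01 (1.77 to 2.27), but of the hyaluronan matrix list 1 of 8 stood at 2-fold or more and the median ratio was 0.822, with Itih5 at 0.765 and Has2 at 0.797.

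Other genes were lower in the members with Ptx3. Igfbp5 was at 1108 against 3725 CPM, a ratio of 0.297 (0.274 to 0.322). Thy1 was at 49.3 against 118 CPM, Cd55 at 140.3 against 299 CPM and Sema3c at 339 against 632 CPM, and of the progenitor surface list 2 of 15 stood at 0.5-fold or less. Dpp4 was at 78.6 against 75.5 CPM, a ratio of 1.04 (0.721 to 1.49). The rule itself differs across this split, since a member without Ptx3 had to hold 3 of the other 4 markers, and the intervals cover counting error and not the spread between cells.

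Levels were also followed over the number of markers a gated cell held, for genes picked after their values were seen. Dpp4 went from 3.55 CPM with no marker through 8.34, 9.15, 52.9 and 94.6 to 189 CPM with all 5. Anxa3 went from 28.0 CPM with no marker through 73.3, 186, 419 and 655 to 1072 CPM with all 5. Ptch1 ran the other way, from 224 CPM with no marker through 143, 94.7, 65.2 and 31.5 to 21.0 CPM with all 5, whereas Gli1 lay between 21.0 and 29.5 CPM. Igfbp5 did not follow the number to the end, with 3801 CPM at 4 markers and 1692 CPM in the 6 cells with all 5. Depth went with the number of markers as well, from a median of 8808.5 UMIs with none to 15375.5 with all 5, and its part in these levels was not tested.

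**Figure D5:**
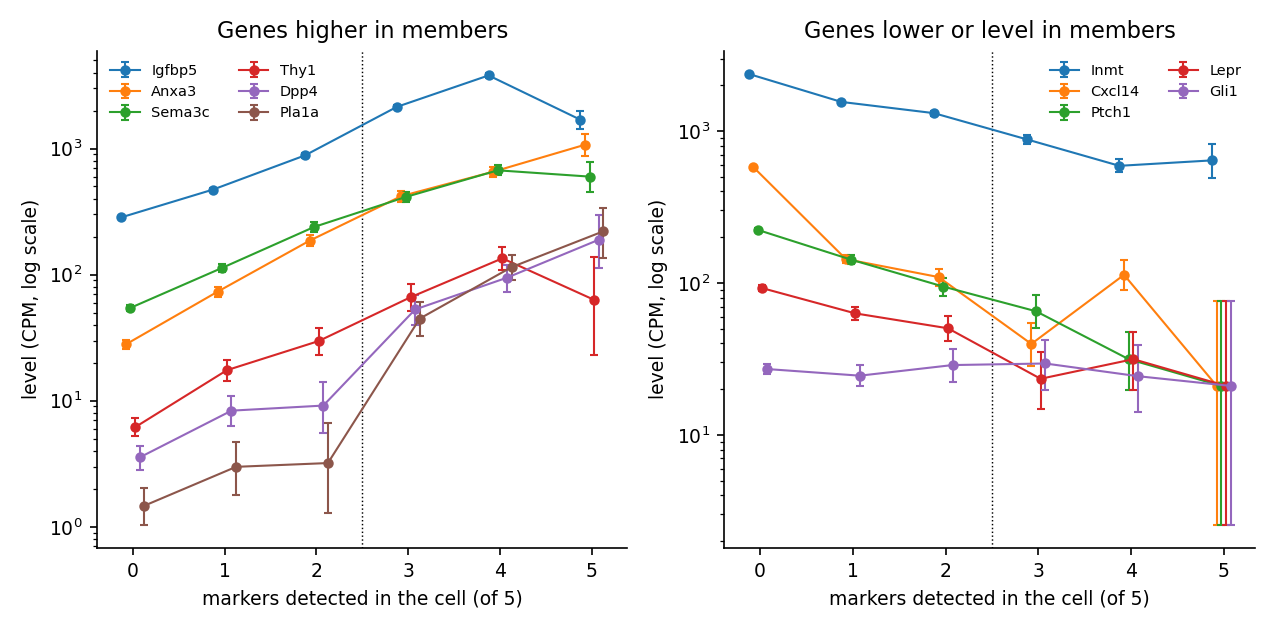
Levels (CPM, log axis) of selected genes in gated cells with 0 to 5 of the markers, with exact 95% Poisson intervals. Dpp4 was at 3.55 CPM in cells without a marker and 94.6 CPM with 4, and Ptch1 at 224 and 31.5 CPM.

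Other adventitial gene sets overlapped with the members to different degrees. At least 2 of Angpt4, Lepr and Ntrk2 were found in 13 members, 9.03%, and 19.7% of others. Ccl11 and Mmp3 were both found in 29.9% of members and 24.4% of others, and Cxcl14 and Fmod both in 1 member and 11.2% of others. How many genes of a set a cell had to hold was settled after the data had been seen.

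Egfp, the reporter of Gli1-driven Cre, was found at 4000 UMIs per cell in 51.4% of members, 64.0% of others and 28.5% of the alveolar type 2-type cells, which give its background. Without thinning the shares were 56.9%, 70.5% and 52.3%. Egfp stood at 1103 CPM in members and 1416 CPM in the others, a ratio of 0.779 (0.744 to 0.815) that was 1.10 in the leading cluster. Cells with at least 1000 CPM of Egfp made up 38.9% (30.9 to 47.4) of members, 45.5% of the other gated cells and 52.1% of depth-matched cells. Such cells made up 45.8% of gate-matched cells but 25.6% of the other cells of the leading cluster, below the share in members. The per-cell median was 89.1 CPM in members, 697 CPM in the other gated cells and 0 CPM in the other cells of that cluster.

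In the authors' deposited table, which lists 17 clusters against a set not given in it, Ptx3 was highest in cluster 3, at a log2 fold change of 2.82, and Ebf2 was at 2.55 in cluster 3 and 2.44 in cluster 2. In the authors' deposited table Thy1 and Pla1a were also highest in cluster 3, at 2.79 and 2.08. In the authors' deposited table Lrrn4cl, Dpp4 and Sema3c were highest in cluster 15, at 2.81, 3.65 and 3.11. Smpd3 and Igfbp5 of the authors' deposited table were also highest in cluster 15, at 4.02 and 4.95. Cluster 3 of the authors' deposited table had Aldh1a3 at 2.13 and Smpd3 at 0.727. It had Igfbp5 at 0.348, Tmem100 at 0.325 and Anxa3 at -0.588 in the authors' deposited table. Cluster 15 of the authors' deposited table had Ptx3 at -4.56 and Ebf2 at -3.43, and cluster 3 of the authors' deposited table had Dpp4 at -2.27, where members here had more Dpp4 than the other gated cells. These comparisons are unlike, since the members were set only against gated cells. Clusters 4 and 5 of the authors' deposited table had Dpp4 at 1.94 and 1.38 and Pi16 at -7.37 and -7.04.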

How the data were processed

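Lung cells were sequenced as 1 pooled droplet library. The deposited UMI counts were made by the authors with Cell Ranger 3.0.0 on mm10, per the submitters' processing notes. The authors' deposited cluster table gives log2 fold changes and adjusted p-values per cluster, by a method not given in the sources used here. Per the file headers, a percent value of the run summary gives the sequencing saturation, 51%. The members and gene lists were chosen with earlier results of these data known. UMIs were summed per set of cells as CPM. Levels have exact Poisson intervals, ratios exact conditional binomial intervals and shares Clopper-Pearson intervals, all at 95%. Genes needed 30 UMIs over both sets. Named genes were the 20 highest and 15 lowest ratios with at least 100 UMIs whose interval lay on the same side of 1 over depth-matched cells, the markers, the other adventitial sets, the reporters and up to 4 of each list with the largest change; further list genes were named after their values were seen. Cells were clustered (Leiden, resolution 1) and doublets called (Scrublet, rate 0.08) in scanpy 1.11.5. Gene positions are from GENCODE. Python 3.11.15, numpy 2.4.6 and scipy 1.17.1 were used, and the scripts were tested on simulated data. The result of 1 gene list is not reported here.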

Additional observations from a re-analysis of the deposited data

How the results depend on the processing

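Results were recomputed under each alternative, of which the gate match, the leading cluster and the removal of 1 cell per gene were chosen after seeing the data. The genes at 2-fold or more in members over other gated cells numbered 263 over depth-matched cells, 740 with the rule on thinned cells (47 members), 660 with members from one part of the UMIs (76 members), 255 with a minimum of 100 UMIs, 1197 with no minimum, 158 in the leading cluster and 289 without 1 cell per gene. Fewer genes or cells were tested in several of these by construction, and other causes were not tested. The genes at 0.5-fold or less numbered 569 over depth-matched cells, 318 over gate-matched cells and 181 in the cluster. Members were 9.39% of gated cells with at least 2 markers, 1.71% with at least 4, 4.77% with a gate of 20 UMIs and 1.59% after thinning. The cluster with most members held 56.3% and 60.4% of them at resolutions of 0.5 and 2. With at least 3 of the other 4 markers the held-out ratios were 23.1 for Ptx3, 12.3 for Ebf2, 15.3 for Cadm3 and 36.8 for Lrrn4cl, and depth matching gave 58.3 for Efhd1.

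Some gene ratios changed direction, and the cause was not tested. In the leading cluster they were Col8a1 7.54, Cxcl14 1.16, Fmod 3.01, Ccl11 0.795, Egfp 1.10, TdTomato 1.08, Cadm1 0.754, Lrrn3 3.01, Notum 1.0048, Bmp7 3.52, Col13a1 1.51, Serpine2 1.04, Cd59a 1.03, C7 1.37, Itga8 2.26, Cdh11 1.0004, Angptl7 1.51, Lmod1 1.0048 and Ccnb2 1.0048. Over gate-matched cells they were Col8a1 2.40, Ccl11 0.868, TdTomato 1.68 and Angptl7 2.87, and over depth-matched cells Dlk1 3.33. With at least 2 markers they were Col8a1 1.33, Dlk1 1.23, Top2a 3.09, Cdk1 3.01, Ccnb1 3.62 and Ccnb2 1.96, and with at least 4 markers Igkc 0.00626, Jchain 0.114 and Igha 0.0280. With the rule on thinned cells they were Igkc 0.0224, Jchain 0.136, Igha 0.0167, Ccl11 0.873, TdTomato 1.33 and Ccnb1 1.60. Without the cell with most UMIs of the gene they were Igkc 0.568, Igha 0.510 and Sln 0.863, where the lost cell is the construction. Leaving out doublet calls, a mitochondrial maximum of 5%, a gate of 20 UMIs and the mean of per-cell CPM turned no direction. No paired analysis was possible because the samples share 1 pooled matrix and no result comes from a test. Genes near 3 UMIs in the members are limited by depth. Some ratios that changed direction in the leading cluster rest on low levels. Members and the other cells there had Col8a1 at 3.61 and 0.480 CPM. Fmod was at 5.78 and 1.92 CPM and Itga8 at 6.51 and 2.88 CPM.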
